A study of Homo sapiens with 11 samples.

Results

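In U2OS, a human osteosarcoma cell line, 9717 H3K9me3 peaks lay at replication origins without CUL4A or CDT2. They were chosen by position alone: a peak of chromosomes 1 to 22 had to share at least 1 bp with a U2OS origin and no base with a CUL4A region, a CDT2 peak or an H3K4me3 peak. They were 17.3% of the 56182 H3K9me3 peaks on these chromosomes, and 57632 H3K9me3 peaks were listed in all. They are called H3K9me3-only origin peaks below.

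H3K9me3 is the trimethylated form of lysine 9 on histone H3, deposited by enzymes such as SUV39H1 and SETDB1 and bound by HP1 proteins. It marks heterochromatin, much of which replicates late in S phase. Origins are licensed in G1, when CDT1 helps to load the MCM helicase. The ubiquitin ligase CRL4 is built on the scaffold CUL4A, and its substrate receptor CDT2 acts with chromatin-bound PCNA in the removal of CDT1 during S phase. SKP2 is a substrate receptor of another ligase, SCF, which also targets CDT1. RepID is a further receptor of CRL4, and H3K4me3, which was excluded here, marks active promoters.

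The series comprised 11 samples, of which 3 were inputs without a list and each of the other 8 gave a list of enriched regions, so that every list rests on 1 sample. U2OS cells with unaltered RepID gave nascent-strand origins and ChIP-Seq lists for CUL4A, H3K4me3 and H3K9me3. HCT116, a colon carcinoma cell line, gave SKP2 peaks in RepID WT cells, SKP2 peaks in RepID KO cells and nascent-strand origins of a RepID KO clone, with the KO made by CRISPR-Cas9, and all cultures were unsynchronized. The CDT2 list is labelled U2OS, the methods of the study name wild-type cells and the submitters' design text names a stable line overexpressing FLAG-tagged full-length RepID, so the line was not settled. With 1 sample per list no spread between replicates could be measured, sequencing depth was unknown, and the intervals below cover counting error only and treat neighbouring peaks as independent. Positions are those of the deposited lists, for which the submitters' processing notes name hg19, and genes were not assigned here.

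The H3K9me3-only origin peaks were narrow and modestly enriched. Their width had a median of 316 bp, with 203 bp at the 10th and 889 bp at the 90th percentile and a maximum of 2978 bp. The fold enrichment of H3K9me3 over the control, a ratio given by the authors, had a median of 3.85, with 2.99 and 5.10 at the same percentiles and limits of 1.41 and 61.7. The median −log10 q of the peak caller was 2.39, and 6156 peaks (63.4%) reached 2. For comparison, the 14275 origin peaks that shared a base with CUL4A or CDT2, and none with H3K4me3, had a median width of 388 bp, a median fold of 4.07 and 76.5% of peaks at a −log10 q of 2 or more. The 22183 peaks without an origin, CUL4A, CDT2 or H3K4me3 had a median width of 283 bp, a median fold of 4.01 and 58.2% at that level. By width and by −log10 q the H3K9me3-only origin peaks thus lay between these classes, whereas their median fold was below both. A low fold was not particular to them. Among the origin peaks with the ligase, the median fold was 3.84 with CUL4A only, 4.32 with CDT2 only and 4.39 with CUL4A and CDT2. These values come from the list that defined the classes and are given without a test.

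**Figure D1:**
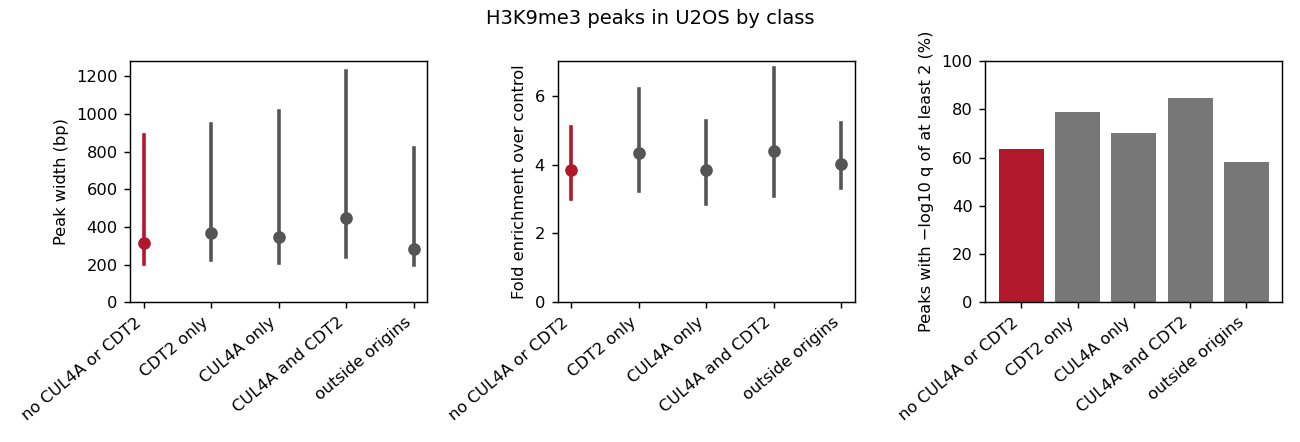
Median (points) and 10th to 90th percentile (lines) of peak width in bp and of fold enrichment over control, and the percentage of peaks with −log10 q of at least 2 (bars), for 5 classes of U2OS H3K9me3 peaks without H3K4me3 on chromosomes 1 to 22. The H3K9me3-only origin peaks (red) had a median width of 316 bp, below the 447 bp of origin peaks with CUL4A and CDT2 and above the 283 bp of peaks outside origins.

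A total of 8093 of the H3K9me3-only origin peaks (83.3%) lay wholly inside an origin, and 399 (4.11%) were covered by origins over less than 50% of their length. The peak centre was in the middle 50% of the origin for 48.4% of them and for 52.3% of the origin peaks with CUL4A or CDT2. They were spread over 9380 of the 126050 origins of chromosomes 1 to 22 (7.44%), of which 9058 held 1 such peak, 303 held 2, 18 held 3 and 1 held 4. The origin holding 4, chr14:62636801-62657600, was 20800 bp wide, and its peaks had folds of 2.38, 3.81, 4.79 and 3.73. Of the 18 origins with 3 peaks, the one with the highest origin score was chr22:25474201-25547000, which was 72800 bp wide. The usual arrangement was therefore a single short peak of this class within an origin several times its width. H3K9me3 peaks of other classes in the same origin were not counted.

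The origins at these peaks had a median width of 3000 bp and a median score of 40.9 per kb, where the score is a whole number of the authors that ranks regions within a list. At origin peaks with CUL4A or CDT2 the medians were 3600 bp and 46.7 per kb, and over all origins of chromosomes 1 to 22 they were 2400 bp and 41.9 per kb. A peak without CUL4A or CDT2 could still share its origin with them. Of the 9380 origins, 1079 (11.5%) held a CUL4A region elsewhere, 587 (6.26%) a CDT2 peak and 401 (4.28%) an H3K4me3 peak, and 7849 (83.7%) held none of the 3.

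The nearest CUL4A region was a median of 15090 bp away, the nearest CDT2 peak 31638 bp and the nearest H3K4me3 peak 44803 bp. CUL4A came within 1 kb of 290 peaks (2.98%) and CDT2 of 160 (1.65%), and 489 peaks (5.03%) had at least 1 of the 3 lists within 1 kb. At the other end, 929 peaks (9.56%) were over 100 kb from any CUL4A region and 1808 (18.6%) over 100 kb from any CDT2 peak. Few of the peaks were thus separated from the ligase by a narrow margin. The closest cases were chr10:49433606-49434014, whose nearest base was 6 bp from a CUL4A region, and chr4:97023089-97023413, 5 bp from a CDT2 peak. Just outside the rule, chr20:61415402-61415601 and chr3:54407793-54408001 shared 1 bp with a ligase region and were left out. At the origin boundary, chr18:13328200-13328411 and chr6:153748800-153749025 were kept with 1 bp inside an origin, and chr11:95918636-95919000 was left out at a distance of 1 bp from an origin.

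H3K9me3 peaks in this class were less crowded than those with the ligase. The nearest other H3K9me3 peak was a median of 13078 bp away, against 9766 bp for origin peaks with CUL4A or CDT2 and 17425 bp for peaks outside origins. Another H3K9me3 peak lay within 5 kb of 23.2%, 31.4% and 18.9% of the peaks, in the same order.

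The HCT116 lists were not used to choose the peaks, so they allow a comparison with the other H3K9me3 classes. The question was whether H3K9me3-only origin peaks of U2OS also met origins in HCT116 RepID KO cells and SKP2 peaks in HCT116 cells. Of all H3K9me3 peaks on chromosomes 1 to 22, 28.3% met an HCT116 RepID KO origin, 4.3% a SKP2 peak of HCT116 WT cells and 4.55% a SKP2 peak of RepID KO cells. The H3K9me3-only origin peaks were below these backgrounds in all 3 lists. U2OS and HCT116 differ in cell line and, for the KO lists, in RepID, so that effects of cell line and genotype cannot be told apart.

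An HCT116 RepID KO origin was met by 1982 of the 9717 peaks, or 20.4% of them (Wilson 95% confidence interval 19.6 to 21.2%). The share was 58.2% (57.3 to 59.0%) for origin peaks with CUL4A or CDT2, and the difference, H3K9me3-only minus ligase class, was −37.8 percentage points (Newcombe 95% interval −38.9 to −36.6 points). It was 6.33% (6.02 to 6.66%) outside origins, where the difference was 14.1 points (13.2 to 14.9 points). Both differences were larger than counting error and had the same direction on 22 of 22 chromosomes. Within strata of origin width, a setting chosen after seeing the data, the difference from the ligase class was −34.1 points (−35.2 to −33.0 points).

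Split by partner, which was decided on after seeing the data, the origin peaks with the ligase were not alike. The share meeting an HCT116 RepID KO origin was 61.9% with CUL4A and CDT2 together, 63.7% with CUL4A only and 23.1% (21.2 to 25.2%) with CDT2 only. The H3K9me3-only origin peaks therefore lay close to the CDT2-only class, with a difference of −2.72 points (−4.91 to −0.628 points), and far below both classes with CUL4A. Its size depended on the CDT2 peaks counted: with those of score 50 or more it was −29.6 points (−37.7 to −21.5 points). Few CDT2-only peaks remained at that limit: the H3K9me3-only peaks then numbered 11299, against 11443 with no CDT2 list in the rule. With regions up to 1 kb away or 1 kb around each centre, the interval of the difference included 0. The median width of the U2OS origins was 3000 bp for H3K9me3-only peaks and 2600 bp with CDT2 only. It was 3200 bp with CUL4A and CDT2 and 4400 bp with CUL4A only. The classes with CUL4A were thus highest in both origin width and share. For this split, shares within strata of origin width were not computed.

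SKP2 peaks were rare at the H3K9me3-only origin peaks. In HCT116 WT cells SKP2 was found at 232 of them, 2.39% (2.10 to 2.71%), against 7.56% (7.14 to 8.0%) of the origin peaks with CUL4A or CDT2, a difference of −5.17 points (−5.70 to −4.64 points), and 1.19% (1.06 to 1.35%) outside origins. In RepID KO cells SKP2 was found at 338, 3.48% (3.13 to 3.86%), against 7.89% (7.46 to 8.35%) and 1.67% (1.51 to 1.85%), and the difference from the class with the ligase was −4.42 points (−4.99 to −3.84 points). The H3K9me3-only peaks exceeded the peaks outside origins by 1.19 points (0.870 to 1.54 points) in WT cells and by 1.81 points (1.42 to 2.22 points) in RepID KO cells. On 22 of 22 chromosomes they were below the ligase class for each SKP2 list, and on 21 of 22 above the peaks outside origins. With CDT2 only the SKP2 shares were 5.79% (4.79 to 7.0%) in WT and 6.60% (5.53 to 7.88%) in RepID KO cells, from which the H3K9me3-only peaks differed by −3.41 points (−4.64 to −2.35 points) and −3.13 points (−4.44 to −1.98 points). With CDT2 peaks of score 50 or more, where few CDT2-only peaks remained, these differences were −23.1 points (−30.8 to −16.6 points) and −11.5 points (−18.3 to −6.49 points).

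**Figure D2:**
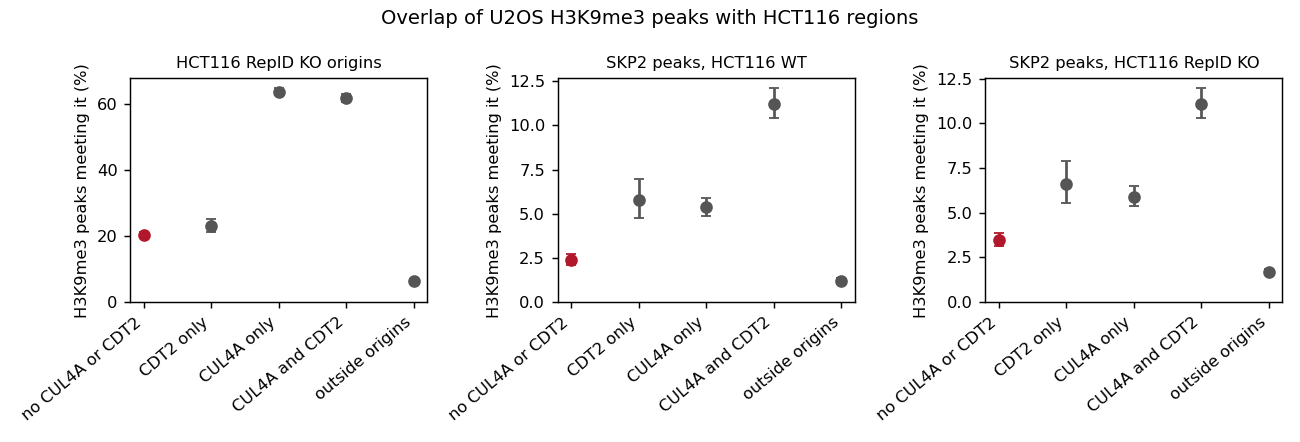
Percentage of U2OS H3K9me3 peaks of each class (without H3K4me3, chromosomes 1 to 22) that share at least 1 bp with an HCT116 RepID KO origin, a SKP2 peak of HCT116 WT cells or a SKP2 peak of HCT116 RepID KO cells, with Wilson 95% intervals (bars, counting error only). The H3K9me3-only origin peaks (red) were at 20.4%, 2.39% and 3.48%, above the peaks outside origins and below each class with CUL4A or CDT2.

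Most of the peaks met no HCT116 region. None of them was met by 7391 of the H3K9me3-only origin peaks (76.1%, against 68.1% of all H3K9me3 peaks), at least 1 by 2326 and all 3 by 23. Of the 534 peaks with SKP2 in WT or RepID KO cells, 36 had it in both, which was 15.5% of those with SKP2 in WT cells and 10.7% of those with SKP2 in RepID KO cells. Over all H3K9me3 peaks of chromosomes 1 to 22 these shares were 22.2% and 21.0%. They were 22.3% and 21.4% for origin peaks with CUL4A or CDT2, and lower, at 10.9% and 7.82%, for peaks outside origins. These differences were not tested. SKP2 of WT cells was found at 5.60% of the 1982 peaks in HCT116 RepID KO origins and at 1.56% of the other 7735. For SKP2 of RepID KO cells these shares were 5.15% and 3.05%. Seen from the SKP2 lists, 232 of 11929 in WT cells (1.94%) and 339 of 13518 in RepID KO cells (2.51%) met an H3K9me3-only origin peak. Their median scores were 416.5 and 385, against 380 and 359.5 over each whole list.

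The 5 peaks with the highest H3K9me3 fold among those in all 3 HCT116 lists had folds below the class median of 3.85. Their −log10 q values, from 3.17 to 7.47, were all above the class median of 2.39. At chr11:70792057-70792430 the fold was 3.54, the U2OS origin was 11800 bp wide, and the peak lay wholly within the HCT116 RepID KO origin and the RepID KO SKP2 peak but shared only 54 bp with the WT SKP2 peak. At chr17:80804100-80804308 the fold was 3.44, and SKP2 peaks of 270 bp in WT and 419 bp in RepID KO cells covered 162 bp and 209 bp of it. At chr16:1142439-1142906, with a fold of 3.10, both SKP2 peaks covered all 468 bp. The others were chr16:87252692-87253639 and chr7:151094696-151094984, each with a fold of 2.88. The SKP2 peaks at these 5 sites were between 270 and 1050 bp wide in the HCT116 lists.

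**Figure D3:**
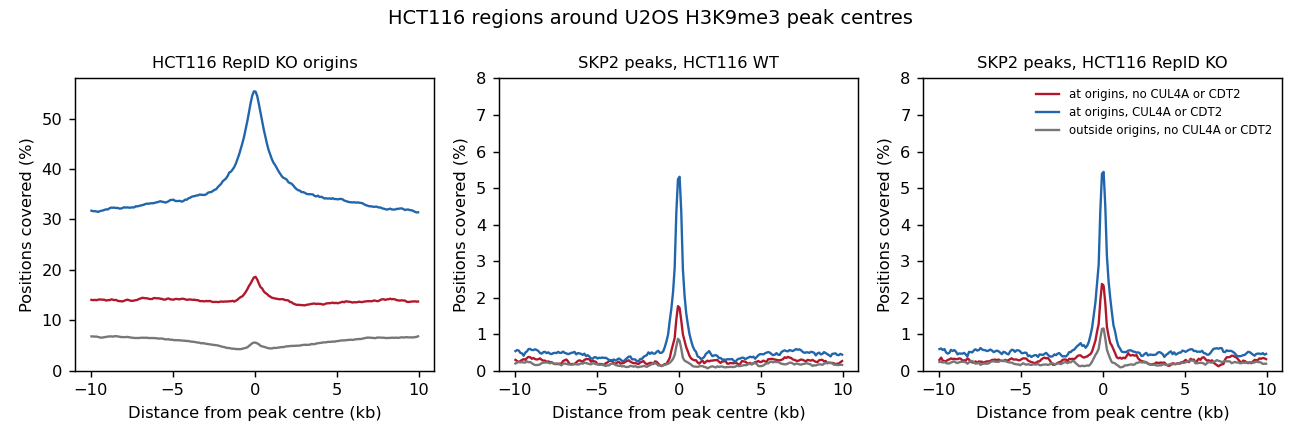
Percentage of positions covered by HCT116 regions (RepID KO origins, and SKP2 peaks in WT and in RepID KO cells), in bins of 100 bp up to 10 kb on each side of the centres of U2OS H3K9me3 peaks, for origin peaks without CUL4A or CDT2 (red), origin peaks with them (blue) and peaks outside origins without them (grey). At the red centres coverage was 18.6% for the origins and 1.74% and 2.35% for SKP2, against 13.9%, 0.261% and 0.304% in the outermost 1 kb.

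Coverage around the peak centres was flatter for the origins than for SKP2, but the lists differ in region width. The median was 2000 bp for HCT116 RepID KO origins, and 360 bp and 368 bp for SKP2 peaks of WT and RepID KO cells. Wide regions flatten such a profile, so its sharpness cannot be compared between origins and SKP2. HCT116 RepID KO origins covered 18.6% of the centres of H3K9me3-only origin peaks and 13.9% of positions in the outermost 1 kb of a window of 10 kb on each side, so that most of the level was present throughout the window. Around origin peaks with CUL4A or CDT2 these values were 55.4% and 31.7%, and around peaks outside origins they were 5.58% and 6.69%, so that the centres were below the outermost 1 kb. SKP2 coverage at the centre was 4.09 to 10.9 times that of the outermost 1 kb over the 3 classes and both SKP2 lists. At H3K9me3-only origin peaks, coverage by SKP2 peaks of WT cells rose from 0.261% to 1.74% and by those of RepID KO cells from 0.304% to 2.35%.

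Among the H3K9me3-only origin peaks, the share in HCT116 RepID KO origins was lower far from CUL4A, and also far from CDT2 and H3K4me3. By distance to CDT2 it was 24.4% within 1 kb, 29.0% at 5 to 10 kb and 10.3% beyond 100 kb. By distance to H3K4me3 it was 28.2% within 5 kb and 14.4% beyond 100 kb. The 3 distances were not examined jointly. By distance to CUL4A the share was 31.0% for the 290 peaks within 1 kb, 35.3% at 1 to 2.5 kb, 36.4% at 2.5 to 5 kb and 29.3% at 5 to 10 kb. It then fell to 18.2% at 10 to 25 kb, 11.6% at 25 to 50 kb, 6.07% at 50 to 100 kb and 5.17% (3.92 to 6.78%) for the 929 peaks beyond 100 kb. For peaks outside origins, at all distances from CUL4A, the share was 6.33%. It was not computed for those beyond 100 kb alone, so the most remote origin peaks have no like group to be set against. The width of the U2OS origins moved with distance, from a median of 4400 bp within 1 kb to 2000 bp beyond 100 kb, and the share rose with that width, from 12.7% in origins of up to 1 kb to 39.8% in those over 16 kb. Among peaks in origins of 2 to 4 kb, the share was 30.7% (28.2 to 33.4%, n = 1204) with CUL4A within 10 kb and 5.11% (3.72 to 7.0%, n = 704) with CUL4A over 50 kb away, so the contrast remained at like origin width.

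SKP2 shares, which were at a lower level, varied less with distance in percentage points. The WT share was 0.690% (2 of 290 peaks, 0.189 to 2.48%) within 1 kb of CUL4A and reached 4.10% (3.22 to 5.21%) at 5 to 10 kb. It was then between 1.91% and 2.25% in the next groups and 1.29% (0.740 to 2.24%) beyond 100 kb, below the interval at 5 to 10 kb. The RepID KO share was 1.03% (3 of 290, 0.352 to 3.0%) within 1 kb, 4.35% (3.32 to 5.67%) at 2.5 to 5 kb and 2.48% (1.66 to 3.69%) beyond 100 kb. It was between 3.23% and 3.87% in the other distance groups. The RepID KO interval at 2.5 to 5 kb overlapped that beyond 100 kb but not that within 1 kb.

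**Figure D4:**
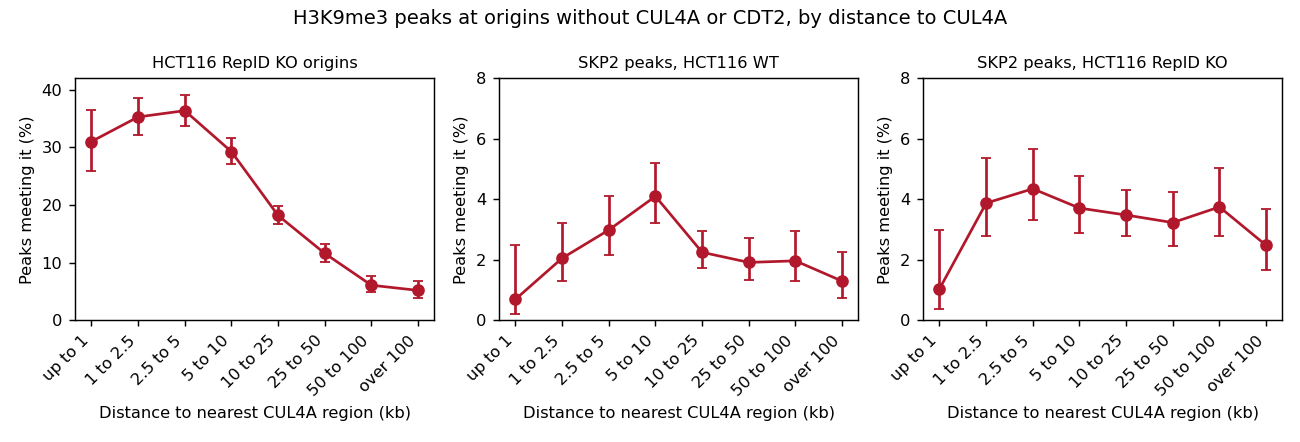
Percentage of H3K9me3-only origin peaks meeting HCT116 regions (RepID KO origins, and SKP2 peaks in WT and in RepID KO cells), by distance in kb to the nearest U2OS CUL4A region, with Wilson 95% intervals (bars, counting error only). The origin share was 36.4% at 2.5 to 5 kb and 5.17% beyond 100 kb, while the RepID KO SKP2 share was 4.35% and 2.48% at the same distances.

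Peaks of the lowest fold met the HCT116 lists most often. The peaks were divided into 5 groups of equal number at H3K9me3 folds of 3.31, 3.66, 4.05 and 4.61. HCT116 RepID KO origins were met by 31.1% of the peaks in the lowest group, and then by 20.1%, 19.5%, 17.0% and 14.3%. SKP2 of WT cells was found at 6.07% (5.09 to 7.22%) of the lowest group and at 1.13% to 1.85% of the other groups, and SKP2 of RepID KO cells at 6.89% (5.85 to 8.11%) and at 2.37% to 2.99%. The same limits gave a similar step in the other classes: SKP2 of WT cells was found at 16.7% of the lowest group and 4.66% to 5.89% of the others for origin peaks with CUL4A or CDT2, and at 3.10% and 0.847% to 1.15% outside origins. The lowest fold group of the H3K9me3-only peaks was not the one with the lowest median −log10 p, which was 4.07 there and 3.85 in the next group. A weaker −log10 q did not go with higher shares. Peaks of −log10 q 2 or more met the origins, WT SKP2 and RepID KO SKP2 at 20.9%, 2.57% and 3.98%. The whole class was at 20.4%, 2.39% and 3.48%. The lowest fold group was also nearest to CUL4A, at a median of 10775 bp against 15016 to 18079 bp in the other groups.

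The score per kb of the U2OS origin moved the other way. From the lowest to the highest of 5 groups by origin score per kb, the share meeting HCT116 RepID KO origins was 15.6%, 18.4%, 20.8%, 23.4% and 23.9%. SKP2 was found at 1.03% of the lowest and 4.13% of the highest group in WT cells, and at 2.06% and 5.22% in RepID KO cells. Peaks at U2OS origins of higher score per kb thus met more origins and more SKP2 peaks of HCT116. These groups also differed in origin width, with a median of 3400 bp in the lowest and 1400 bp in the highest group.

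Whether H3K9me3 itself went with a difference was examined among U2OS origins that held no CUL4A, CDT2 or H3K4me3 at any base, a comparison chosen after the data had been seen. Of 77228 such origins, 7860 held an H3K9me3 peak and had a median width of 2400 bp, and 69368 held none and had a median width of 2000 bp. Of all U2OS origins on these chromosomes, 42.2% met an HCT116 RepID KO origin, 5.01% a WT SKP2 peak and 5.87% a RepID KO SKP2 peak. The RepID KO origin share was 23.3% with and 24.2% without H3K9me3, a difference of −0.902 points whose interval (−1.88 to 0.0973 points) included 0. Within strata of origin width it was −3.66 points (−4.61 to −2.67 points), and with H3K9me3 peaks of −log10 q 2 or more its sign turned, to 0.115 points (−1.09 to 1.36 points). Origins with H3K9me3 were above those without it on 7 of 22 chromosomes.

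SKP2 was more frequent at the origins with H3K9me3. Its WT share was 3.78% (3.38 to 4.22%) at the origins with H3K9me3 and 2.76% (2.65 to 2.89%) at those without, higher by 1.01 points (0.595 to 1.47 points), and by 0.816 points (0.414 to 1.31 points) within strata of origin width. Its RepID KO share was 5.41% (4.93 to 5.93%) and 3.60% (3.46 to 3.74%), higher by 1.81 points (1.31 to 2.35 points), and by 1.52 points (1.03 to 2.09 points) within strata. Origins with H3K9me3 had the higher share on 17 of 22 chromosomes for WT and 20 of 22 for RepID KO SKP2. By origin width, the WT shares with and without H3K9me3 were close in origins of 2 to 4 kb, at 2.93% and 2.79%. At 8 to 16 kb they were 10.6% (7.72 to 14.3%) and 5.84% (4.61 to 7.36%). In every other width group the WT intervals with and without H3K9me3 overlapped. Over all widths together, the WT and RepID KO differences were both larger than counting error. Origins with and without H3K9me3 were below the share of all U2OS origins. For RepID KO SKP2 at origins with H3K9me3, however, the interval included the 5.87% of all U2OS origins.

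**Figure D5:**
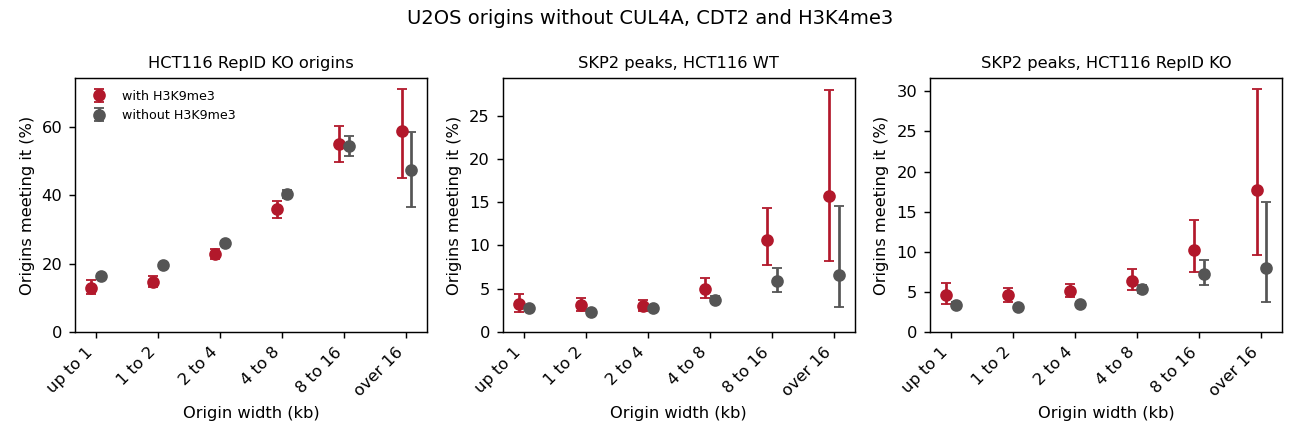
Percentage of U2OS origins without CUL4A, CDT2 and H3K4me3 that meet HCT116 regions (RepID KO origins, and SKP2 peaks in WT and in RepID KO cells), by origin width in kb, with (red) and without (grey) an H3K9me3 peak, and Wilson 95% intervals (bars, counting error only). In origins of 2 to 4 kb the values with and without H3K9me3 were 22.7% and 26.0% for the RepID KO origins. They were 2.93% and 2.79% for WT SKP2 and 5.06% and 3.49% for RepID KO SKP2.

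The single strongest H3K9me3-only origin peak stood far from the rest. At chr1:212273441-212274554, a region of 1114 bp, the fold was 61.7 and the −log10 q 398, whereas only 4 peaks of the class had a fold over 10. The next highest folds were 11.7 at chr4:156854262-156854699, 10.4 at a peak on chromosome 8 and 10.2 at chr7:115988918-115989297. The chromosome 1 peak lay in an origin of 1800 bp with a score of 60, 146047 bp from the nearest CUL4A region, and in none of the HCT116 lists. It was the only one of its class in a run of 11 H3K9me3 peaks with folds from 12.4 to 61.7 across chr1:212216246-212276402, a span of 60157 bp. The other 10 peaks of the run lay outside origins. The run held 7 of the 20 H3K9me3 peaks of chromosomes 1 to 22 with a fold over 20, and no region of CUL4A, CDT2, H3K4me3, SKP2 or HCT116 RepID KO origins. What set these folds apart was not tested, and they are given as values of the peak caller, not as a measure of H3K9me3 density. Leaving out the run changed no call of the class.

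The other strong or wide peaks of the class met the HCT116 lists in part. Among the 10 with the highest folds, 1 met an HCT116 RepID KO origin (chr9:138601836-138602120, fold 9.39) and 2 met a RepID KO SKP2 peak (chr17:52490558-52491288, fold 9.14, and chr5:65663857-65664179, fold 8.95). None of the 10 met a WT SKP2 peak. Over the whole class 20.4% met an HCT116 RepID KO origin, 3.48% a RepID KO SKP2 peak and 2.39% a WT SKP2 peak. Counts out of 10 are too few to be set apart from these shares. The widest, chr16:55723520-55726497 at 2978 bp, had a fold of 4.89 and met an HCT116 RepID KO origin only. The second widest, chr18:44971024-44973894 at 2871 bp, had a fold of 3.64 and met none of the 3 lists. Of the 10 widest, 4 met at least 1 list, while 76.1% of the whole class met none. In the widest of 5 width groups, 1311 peaks with a median of 996 bp, 23.8% met an HCT116 RepID KO origin and 4.20% a RepID KO SKP2 peak, against 20.4% and 3.48% of the whole class.

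The H3K9me3-only origin peaks were spread over all 22 chromosomes, unevenly. They made up between 9.43% of the H3K9me3 peaks on chromosome 13 and 19.9% on chromosome 2, and their density ran from 0.912 to 4.41 per Mb on the same chromosomes. Origins covered 2.71% of chromosome 13 and 16.2% of chromosome 2. The share that met HCT116 RepID KO origins was 10.9% on chromosome 4 and 33.5% on chromosomes 19 and 22. Of 2894 windows of 1 Mb, 599 held none, and the median over the others was 4. The densest windows, with 19 each, were chr11:114000001-115000000 and chr2:46000001-47000000. On chromosome 11 the adjoining windows held 16 and 18, so that 3 neighbouring windows were among the densest.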

How the data were processed

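Nascent strands were prepared with lambda exonuclease, and ChIP-Seq was done on untreated cultures. The authors called all regions, with 1 sample per list, and no reads were used here. Per the deposited form and the methods, origins and CUL4A regions are SICER islands (window 200 bp, gap 600 bp, false discovery rate 0.01 for origins and 1e-05 for CUL4A) with a score from the authors in whole numbers, of unstated scale. The methods name genomic DNA as the control for origins and IgG for ChIP-Seq. The series holds 3 inputs and no IgG sample, so the control behind each list was not settled. The deposited SKP2 and CDT2 peaks carry a score of MACS, and other unlabelled columns of the SKP2 lists were left aside. For histone marks SICER is named in the methods, but the deposited H3K9me3 and H3K4me3 lists look like broad peaks from MACS2, with the authors' fold enrichment over control as a ratio and with −log10 p and −log10 q. The submitters' processing notes name MACS, SICER and hg19; versions and aligner are not given in the sources used here. No library totals are given, so no value was weighted by depth.

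Regions were read as positions counted from 1, and a shared base (1 bp or more) counted as meeting. Distances were taken between nearest bases. Shares have Wilson 95% intervals and differences between classes Newcombe 95% intervals. A difference was called where its interval left out 0; 15 differences between peak classes and 3 between origins were computed, not counting strata, with no correction and no p-value. Strata of peak width (5) or origin width (6) were weighted by the H3K9me3-only origin peaks, or by the origins with H3K9me3. The members, lists and comparisons were chosen with earlier results of these data known. Regions named singly were those with the highest fold, the widest, those with the highest fold among peaks in all 3 HCT116 lists, and the origins with the most peaks; boundary cases and the run on chromosome 1 were chosen after their values were seen. Alternatives are given in the closing section. Overlap and distance functions were tested on simulated data, where 0 of 1356 regions differed from a direct count. Python 3.11.15, NumPy 2.4.6, pandas 2.3.3, SciPy 1.17.1 and matplotlib 3.10.9 were used.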

Additional observations from a re-analysis of the deposited data

How the results depend on the processing

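The number of peaks, their median width and fold, the 3 HCT116 shares and the differences were recomputed under those of 14 other settings that apply to each, which gave 189 values. Of these settings 4 were chosen after seeing the data (strata of origin width, 1 peak per origin, no CDT2 list, no chromosome 1 run). Groups by distance, fold, origin score and width were not recomputed. All 81 recomputed differences from the origin peaks with CUL4A or CDT2 and from peaks outside origins kept their direction and an interval without 0. The ranges were −42.4 to −34.1 points for RepID KO origins, −5.68 to −3.28 for WT SKP2 and −4.84 to −2.89 for RepID KO SKP2 against the class with CUL4A or CDT2, and 12.9 to 18.8, 0.815 to 1.48 and 1.16 to 2.47 against peaks outside origins.

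Some levels moved. With a −log10 q of at least 2 there were 6156 peaks, with a RepID KO SKP2 share of 3.98%, a median width of 289 bp and a median fold of 4.26. With origins at or above the median score there were 5918, of which 25.9% met RepID KO origins, with a fold of 3.78. With CDT2 peaks of score 50 or more, width and fold were 322 bp and 3.91. With 50% of the peak required inside the HCT116 regions the 3 shares were 18.5%, 1.67% and 2.31%, and where regions up to 1 kb away also counted they were 25.2%, 3.05% and 4.52%, as these settings narrow or widen the overlap by construction. With 1 kb around each centre the origin share was 21.7%. With 1 peak per origin it was 19.6% and the fold 3.89. With the CDT2 list left out of the rule, the SKP2 shares were 2.90% and 3.95%, the width 323 bp and the fold 3.91.

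Of 33 recomputed differences from the CDT2-only class, 31 kept direction and call. For RepID KO origins the difference was −2.05 points (−4.37 to 0.173 points) with regions up to 1 kb away and −2.01 points (−4.23 to 0.103 points) with 1 kb around each centre.

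Among origins without CUL4A, CDT2 and H3K4me3, the RepID KO origin difference between those with and without H3K9me3 was −3.66 points within strata of origin width, −3.30 points with origins at or above the median score and 0.115 points (−1.09 to 1.36 points) with a −log10 q of at least 2, so its direction depended on the setting, and the cause was not tested.

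No paired analysis was possible because each list came from 1 sample. The share of peaks in genes was not run, since no annotation of hg19 was used here. Unknown depth limits what a missing overlap means: a region below the peak caller's threshold in any list counts as not met.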

Other observations

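Chromosome X was not part of the rule. Of its 1420 H3K9me3 peaks, 90 lay at a U2OS origin without CUL4A, CDT2 or H3K4me3, a share of 6.34% (Wilson 95% interval 5.18 to 7.73%). The lowest share on another chromosome was 9.43% (7.85 to 11.3%) on chromosome 13, and these intervals did not overlap. Their median fold was 3.95 and their median width 326 bp. Of these 90 peaks, 12 (13.3%, 7.79 to 21.9%) met an HCT116 RepID KO origin, 1 a WT SKP2 peak and 5 a RepID KO SKP2 peak. The interval for RepID KO origins includes the 20.4% found for the H3K9me3-only origin peaks of chromosomes 1 to 22, so a difference was not detectable with 90 peaks.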
